A study of Mus musculus with 4 samples.

Results

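Bone morphogenetic proteins (BMPs) and the related growth and differentiation factors (GDFs) are secreted signals, and 8 of their genes were followed here together with 2 genes of type I BMP receptors. The ligands were Bmp2, Bmp3, Bmp4, Bmp5, Bmp6, Bmp7, Gdf5 and Gdf10, and the receptors were Bmpr1a and Bmpr1b. They were taken by gene symbol, 10 of the 55450 genes in the count table, and every one of them was found. The data were RNA-sequencing libraries of cultured articular chondrocytes, taken by collagenase digestion from the femoral head cartilage of mice aged 3 weeks and grown in DMEM with fetal bovine serum. There were 4 groups with 1 library each. The WT library was labelled C57BL/6 and wild type. The study's methods, however, name mice with floxed miR-23a/b clusters as its Control. Its account of this experiment speaks of wild-type cells as well as of Control, so that whether the WT cells carried floxed alleles is not certain. The Cart-miR-23clus KO library came from mice with Col2a1-cre and flox/flox alleles of the miR-23a/b clusters on C57BL/6, in which Cre is driven by the promoter of the type II collagen gene and deletes both clusters in cells that use it. The miR-26a KO library came from miR-26a -/- mice on C57BL/6, which carried no label of a transfection, although a control siRNA is described for cells of this genotype. The miR-26a KO + mimic library came from miR-26a -/- cells of C57BL6/J mice that were transfected with a double-stranded miR-26a mimic.

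Many, but not all, BMP and GDF ligands bind pairs of type I and type II receptors that phosphorylate Smad1, Smad5 and Smad9. These Smads enter the nucleus with Smad4 and switch on genes such as those of the Id family. Secreted antagonists such as noggin and gremlin bind the ligands and keep them from the receptors. In the skeleton the pathway is needed for cartilage condensation, for growth and maturation of chondrocytes and for bone formation, and Gdf5 marks the sites where joints form.

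With 1 library per group there was no replicate check and no test between conditions. Each ratio compares 2 libraries, not the conditions, and its interval is the exact Clopper-Pearson 95% interval on the reads. The libraries held between 1336496 and 1505805 reads on genes, so that 0 reads allows a share of the reads of up to 0.000199% to 0.000224%, depending on the library. The deleted miRNAs could not be checked here, because the 5 miRNA genes of these families that the count table names had 0 reads in all 4 libraries. By real-time PCR the paper reports lower levels of the miR-23a/b cluster miRNAs in articular chondrocytes of Cart-miR-23clus KO mice than of Control mice. All 12 chondrocyte markers had reads in every library, led by Col2a1 (type II collagen), which had between 25154 and 35871 reads. Markers of osteoblasts and osteocytes, 12 genes led by Col1a1 (type I collagen), were also high and differed between libraries, with a sum of 35082 reads per 1000000 reads on genes (RPM) in WT, 8536 in Cart-miR-23clus KO cells, 16524 in miR-26a KO cells and 19255 in miR-26a KO + mimic cells.

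The miRNAs that were deleted or added are shown because their seeds give the letters searched for in the mRNAs of the ligands and receptors. Seeds, bases 2 to 8, are in capitals, and the sequences are those of RefSeq on GRCm38.p6.
miR-23a-3p: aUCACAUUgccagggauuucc
miR-27a-3p: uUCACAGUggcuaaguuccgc
miR-24-3p: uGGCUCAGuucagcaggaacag
miR-26a-5p: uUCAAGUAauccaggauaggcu
The sense strand of the mimic had the same bases as miR-26a-5p. The first 3 miRNAs belong to the miR-23a cluster, and their relatives from the miR-23b cluster are known to share their seeds. None of the 4 seeds was the same as another.

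The matches to these seeds, read on the strand of the gene only, were AATGTGA for miR-23a-3p, ACTGTGA for miR-27a-3p, CTGAGCC for miR-24-3p and TACTTGA for miR-26a-5p. The longest annotated 3′ UTR of each of the 10 genes was searched, and 5 genes held a match for a miRNA of the cluster. They are shown with the match in capitals, on GRCm38.
Bmp2, miR-27a-3p, chr2:133562454-133562475 (+): gaataattaggaaaACTGTGAc
Bmp3, miR-23a-3p, chr5:98883382-98883403 (+): aatatttcataaaaAATGTGAg
Bmp3, miR-27a-3p, chr5:98883920-98883941 (+): aggctgtggcagtaACTGTGAa
Bmp7, miR-24-3p, chr2:172870017-172870038 (-): cagaccaacctctcCTGAGCCt
Gdf10, miR-24-3p, chr14:33937076-33937097 (+): gcccttgataaacaCTGAGCCa
Bmpr1b, miR-24-3p, chr3:141838661-141838682 (-): agtatggcagtcacCTGAGCCt
These letters are common. Among 20674 annotated 3′ UTRs, 15.3% held the miR-23a match, 16.3% the miR-27a match, 16.5% the miR-24 match and 9.83% the miR-26a match. Each share is for a single miRNA, whereas the 5 genes were found with any miRNA of the cluster. The share of 3′ UTRs with a match for any of these was not computed and cannot be smaller than a single share. The 5 genes therefore cannot be set against the single shares. The miR-26a match was in 0 of the 10 3′ UTRs, and Bmp4, Bmp5, Bmp6, Gdf5 and Bmpr1a held no match of any kind. A match is a run of letters, and whether a miRNA binds there was not measured.

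Bmp4 gave most of the ligand reads in every library. Bmp4 (ENSMUSG00000021835, chromosome 14, 46383520 to 46390669), which drives chondrocyte differentiation and bone formation, had 440 reads in WT, 288 in Cart-miR-23clus KO cells, 344 in miR-26a KO cells and 332 in miR-26a KO + mimic cells. Per length and library this was 204, 147, 175 and 158 TPM, in which reads are divided by the length of the gene and scaled to the same total in every library. WT was the highest of the 4 and Cart-miR-23clus KO the lowest, and their Poisson intervals, 185 to 224 and 131 to 165 TPM, did not overlap. An antisense gene, Gm15222, overlaps Bmp4 and had between 1 and 9 reads.

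Gdf10 (ENSMUSG00000021943, chromosome 14, 33923587 to 33937983), a close relative of Bmp3 also called BMP3B, was next among the ligands. It had 115 reads in WT, 107 in Cart-miR-23clus KO cells, 187 in miR-26a KO cells and 192 in miR-26a KO + mimic cells, or 21.1, 21.6, 37.7 and 36.2 TPM. The libraries of miR-26a -/- cells were both high, with lower limits of 32.5 and 31.3 TPM, and the others were both low, with upper limits of 25.4 and 26.2 TPM.

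Bmp3 (ENSMUSG00000029335, chromosome 5, 98854415 to 98884396) is abundant in bone matrix and opposes osteogenic BMPs. It had 36 reads in WT, 0 in Cart-miR-23clus KO cells, 12 in miR-26a KO cells and 4 in miR-26a KO + mimic cells. The levels were 12.6 TPM in WT, 4.61 in miR-26a KO and 1.43 in miR-26a KO + mimic, and in Cart-miR-23clus KO the limit set by 3 reads was 1.15 TPM. WT stood above the other 3 libraries without overlap of its interval, 8.81 to 17.4 TPM, while the interval of miR-26a KO, 2.38 to 8.04 TPM, overlapped that of miR-26a KO + mimic, 0.391 to 3.67 TPM.

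Bmp2 (ENSMUSG00000027358, chromosome 2, 133552159 to 133562885), an inducer of cartilage and bone, had 24 reads in WT, 7 in Cart-miR-23clus KO cells, 16 in miR-26a KO cells and 7 in miR-26a KO + mimic cells. The levels were 6.46, 2.08, 4.73 and 1.93 TPM. Only the WT interval, 4.14 to 9.61 TPM, and that of miR-26a KO + mimic, 0.778 to 3.98 TPM, lay apart, since that of Cart-miR-23clus KO reached 4.28 TPM.

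The other ligands were near the limit of detection. Bmp5 (ENSMUSG00000032179, chromosome 9, 75775364 to 75900310), the gene of the short-ear mouse, had 11 reads in WT, 2 in Cart-miR-23clus KO cells, 5 in miR-26a KO cells and 0 in miR-26a KO + mimic cells. Bmp6 (ENSMUSG00000039004, chromosome 13, 38345107 to 38500302), which is expressed in maturing cartilage, had 5, 1, 3 and 6 reads in the same order. It overlaps Txndc5 on the other strand, a gene with 181 to 221 reads, and the strand setting of the counting is not given in the sources used here. Bmp7 (ENSMUSG00000008999, chromosome 2, 172868012 to 172940321), an osteogenic ligand, had 1, 1, 2 and 2 reads. Gdf5 (ENSMUSG00000038259, chromosome 2, 155941023 to 155945367), the joint-forming ligand, had 1 read in WT, 1 in miR-26a KO + mimic and 0 in the other libraries. For Bmp6, Bmp7 and Gdf5 no difference between libraries was detectable at this depth.

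The receptors differed from each other in level. Bmpr1a (ENSMUSG00000021796, chromosome 14, 34410734 to 34503341), the widely used type I receptor of BMP2 and BMP4, had 84 reads in WT, 74 in Cart-miR-23clus KO cells, 74 in miR-26a KO cells and 69 in miR-26a KO + mimic cells. The levels of 13.5, 13.1, 13.1 and 11.4 TPM had intervals that all overlapped. Bmpr1b (ENSMUSG00000052430, chromosome 3, 141837136 to 142169425), the receptor that GDF5 prefers, had 1, 3, 6 and 3 reads. Bmpr1b thus held 1 of the 85 receptor reads in WT, or 1.18% (exact binomial interval 0.0298% to 6.38%), and 6 of 80, or 7.5% (2.80% to 15.6%), in miR-26a KO, and these intervals overlapped.

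In the order of TPM within each library, Bmp4 came first, Gdf10 next and Bmpr1a after it. The intervals of Bmp4 and Gdf10, and of Gdf10 and Bmpr1a, lay apart in all 4 libraries. Of the 9 pairs of neighbours in that order, 2 lay apart in WT and 3 in each of the other libraries, and all other neighbours overlapped. Libraries made from 3′ ends give reads that do not grow with transcript length, so TPM can misplace genes against each other. The genes are therefore ordered here with that limit, which does not touch the ratio of 1 gene between 2 libraries.

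**Figure D1:**
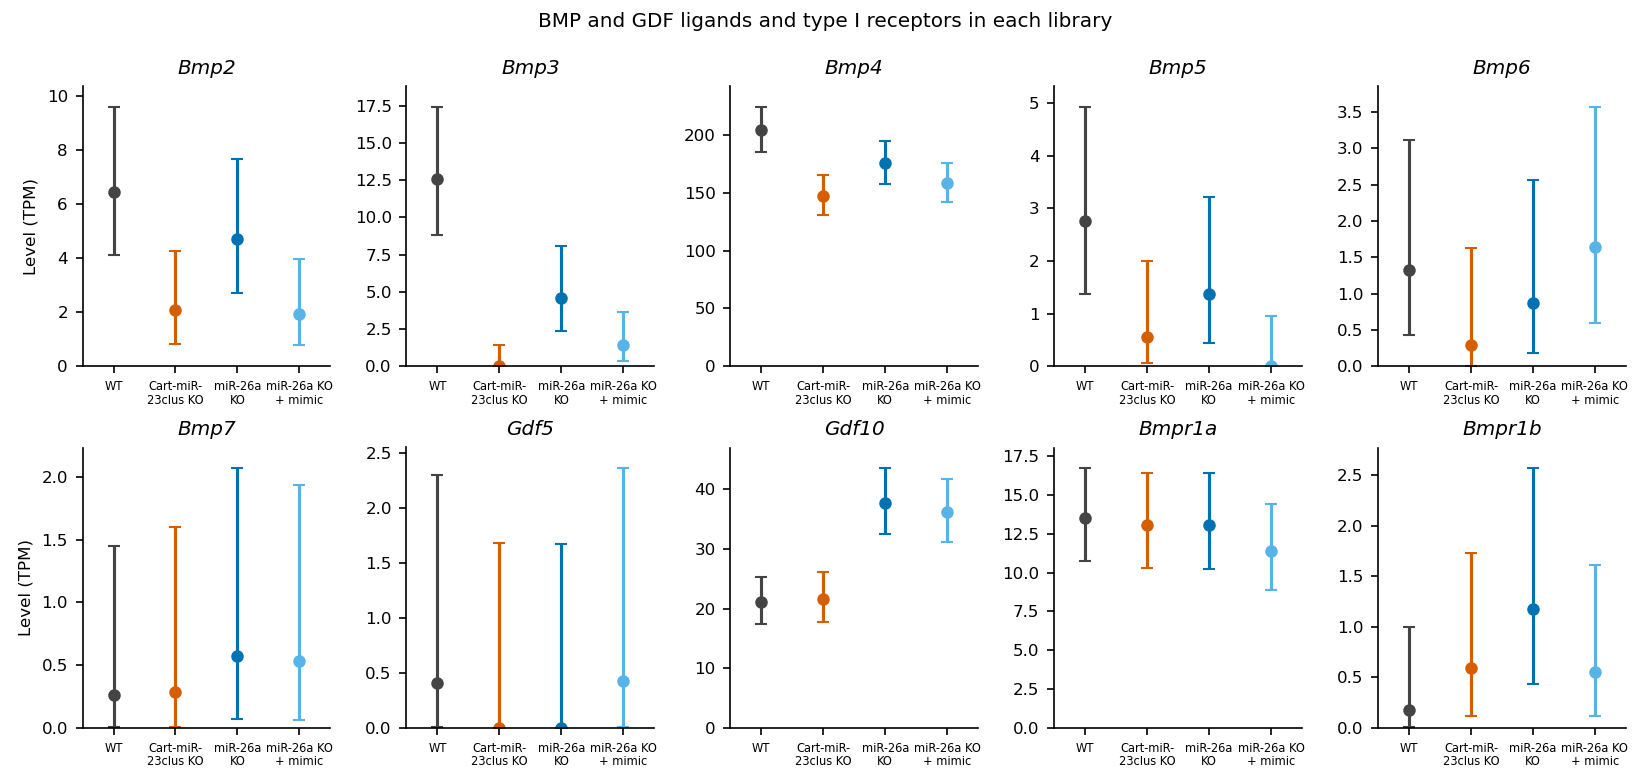
Level of each ligand and receptor in TPM (vertical axis, one scale per panel) in the 4 libraries (horizontal axis, 1 library per group). Points are the deposited values and bars the exact Poisson 95% intervals of the reads. Bmp3 was at 0 in Cart-miR-23clus KO against 12.6 TPM in WT, Gdf10 was at 37.7 and 36.2 TPM in both libraries of miR-26a -/- cells against 21.1 in WT, and Bmpr1a lay between 11.4 and 13.5 TPM.

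Together the 8 ligands gave 633 reads in WT, 406 in Cart-miR-23clus KO cells, 569 in miR-26a KO cells and 544 in miR-26a KO + mimic cells, or 420, 304, 415 and 375 RPM. Bmp4 made up 69.5% of them in WT (exact binomial interval 65.8% to 73.1%), 70.9% in Cart-miR-23clus KO cells (66.3% to 75.3%), 60.5% in miR-26a KO cells (56.3% to 64.5%) and 61.0% in miR-26a KO + mimic (56.8% to 65.1%). Its share was lower in both libraries of miR-26a -/- cells than in the other libraries, with no overlap of intervals. The share of Gdf10 was 18.2% in WT (15.2% to 21.4%), 26.4% in Cart-miR-23clus KO cells (22.1% to 30.9%), 32.9% in miR-26a KO cells (29.0% to 36.9%) and 35.3% in miR-26a KO + mimic (31.3% to 39.5%). Gdf10 thus held a larger part of the ligand reads in each of the other libraries than in WT. In Cart-miR-23clus KO this was so at 107 Gdf10 reads against 115, because the other ligands were fewer. Bmp3 held 5.69% in WT (4.01% to 7.79%), 2.11% in miR-26a KO (1.09% to 3.65%) and 0.735% in miR-26a KO + mimic (0.201% to 1.87%), while its 0 of 406 reads in Cart-miR-23clus KO has an exact upper limit of 0.904%, and 3 reads, the limit used here for a 0, would be 0.739%. Bmp4 and Gdf10 together made up 87.7% of ligand reads in WT (84.9% to 90.1%) and 97.3% in Cart-miR-23clus KO (95.2% to 98.6%), with 93.3% in miR-26a KO and 96.3% in miR-26a KO + mimic.

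**Figure D2:**
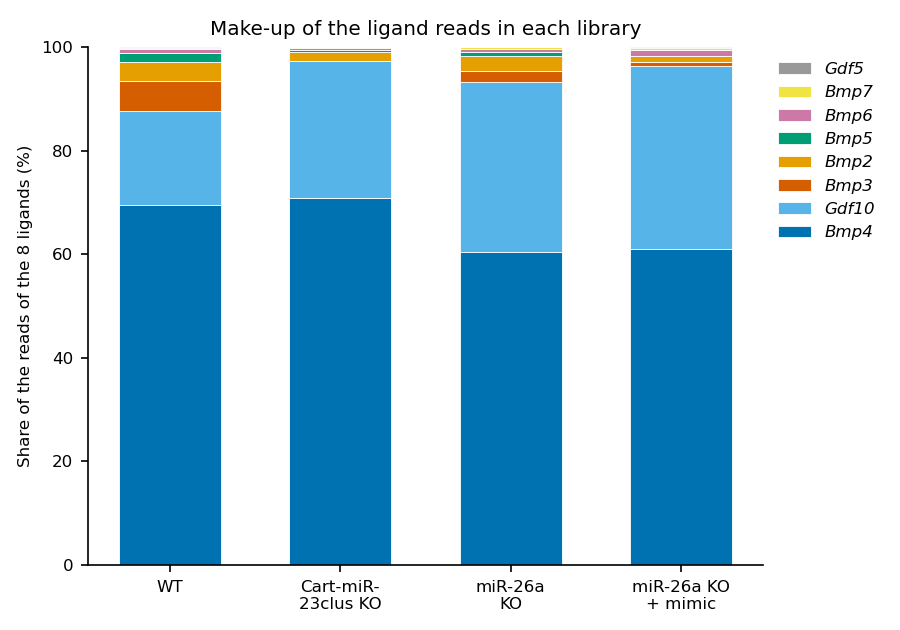
Make-up of the ligand reads, as a percentage of the reads of the 8 ligands (vertical axis) in each of the 4 libraries (horizontal axis). Colours are genes. Bmp4 and Gdf10 fill 87.7% of the WT bar and 97.3% of the Cart-miR-23clus KO bar, and Bmp3 goes from 5.69% in WT to none in Cart-miR-23clus KO.

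The first comparison asked how the ligands and receptors stood in the Cart-miR-23clus KO library against WT. Bmp2, Bmp3 and Bmp5 were lower, Bmp4 was modestly lower, and Gdf10 and Bmpr1a had ratios near 1. A gene was counted as higher or lower where its TPM ratio was above 2 or below 0.5 and the interval left out 1, among genes with at least 10 reads in the 2 libraries together. By this rule 4.16% of the 11119 genes tested were counted higher and 3.8% lower. Of the 10 ligand and receptor genes 6 could be tested, 0 were counted higher, and 3 were counted lower, Bmp2, Bmp3 and Bmp5. These 3 passed the limit of 10 reads through WT, where they were high, so the number is a description and gives no support on its own. With at least 20 reads required in each library, 0 were counted lower.

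Bmp3, with 36 reads in WT and 0 in Cart-miR-23clus KO, had a ratio of at most 0.0918 when the 0 was replaced by 3 reads, and the upper limit of its interval was 0.119. For Bmp2 the ratio was 0.321 (0.117 to 0.768), from 24 and 7 reads. For Bmp5 it was 0.200 (0.0216 to 0.917), from 11 and 2 reads, which places its upper limit close to 1, and a 99% interval, 0.00916 to 1.30, held 1. Bmp4 had a ratio of 0.721 (0.619 to 0.838), and did not reach the fold limit. Gdf10 stood at 1.02 (0.780 to 1.34) and Bmpr1a at 0.970 (0.700 to 1.34), and both intervals held 1. Bmp6 had a ratio of 0.220 (0.00466 to 1.97) and Bmpr1b of 3.30 (0.265 to 173), both from fewer than 10 reads.

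Against miR-26a KO in place of WT, Cart-miR-23clus KO gave other ratios for several genes. Of the 10 genes 5 could be tested in this pair, 0 were counted higher and 1, Bmp3, was counted lower, beside 3.31% and 2.97% of the 11041 genes tested. Bmp3 had 12 and 0 reads, a ratio of at most 0.251 with an upper limit of 0.361. It passed the limit of 10 reads through miR-26a KO alone, and the 0 reads are those of the same Cart-miR-23clus KO library as before, so that its place here is a description and no second observation. Bmp2 was at 0.439 (0.153 to 1.13), so that its interval now held 1. Bmp4 was at 0.839 (0.715 to 0.984), Bmpr1a at 1.00 (0.716 to 1.40), and Gdf10 at 0.574 (0.448 to 0.731), lower in Cart-miR-23clus KO. The value for Gdf10 therefore depended on which library Cart-miR-23clus KO was set against.

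In Cart-miR-23clus KO against WT, Bmp2, Bmp3 and Bmp5 were lower, and so were most of the tested osteoblast and osteocyte markers. Of their 12 genes 9 were tested, 8 were counted lower, and 1, Spp1 (osteopontin), was counted higher. Spp1 and the hypertrophic markers other than Mmp13 are named after their values were seen. Ifitm5, a gene of bone-forming osteoblasts, had 34 reads in WT and 0 in Cart-miR-23clus KO, Dmp1 had 4 and 0, and Phex and Mepe had 0 in both. Of 6 markers of hypertrophic chondrocytes 4 were counted lower, Ihh, Panx3, Pth1r and Alpl, of which Alpl is also 1 of the 8 osteoblast markers just counted. Mmp13, a collagenase with the most reads of that list over the 4 libraries, had a ratio of 0.650 (0.596 to 0.709), and Col10a1 (type X collagen) lay the other way, with 105 reads in WT and 148 in Cart-miR-23clus KO and a ratio of 1.55 (1.20 to 2.01). The sum of the list was 3295 RPM in WT and 1274 in Cart-miR-23clus KO. The 12 chondrocyte markers summed to 36202 and 27951 RPM, with 2 counted higher and 2 lower. The part of these cell types in the ligand values was not tested, and in bulk RNA fewer cells of a type and less RNA per cell cannot be told apart. Adipocyte markers summed to 324 and 845 RPM, smooth muscle markers to 219 and 483, fibroblast markers to 1078 and 656, and macrophage markers to 736 and 850. The 5 endothelial markers had 0 reads in WT and 1 in Cart-miR-23clus KO.

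The next comparison set miR-26a KO against WT, the same WT library as above. Bmp3 was lower, Gdf10 was higher by less than the fold limit, and Bmp4 was slightly lower. Of all 11114 genes tested, 3.37% were counted higher and 2.74% lower. Among the 10 ligand and receptor genes 6 could be tested, 0 were counted higher and 1, Bmp3, was counted lower. Bmp3 had 36 reads in WT against 12 in miR-26a KO and a ratio of 0.366 (0.173 to 0.720). With at least 20 reads required in each library 0 were counted lower, and with the fold limit alone 2 were. Gdf10 went from 115 to 187 reads, a ratio of 1.79 (1.41 to 2.27) whose interval lay above 1. Bmp4 had a ratio of 0.859 (0.743 to 0.991), with an upper limit close to 1. For Bmp2 the ratio was 0.732 (0.363 to 1.44), for Bmp5 0.499 (0.136 to 1.56) and for Bmpr1a 0.967 (0.698 to 1.34), and these 3 intervals held 1. Bmpr1b, with 1 and 6 reads, was under the limit of 10 reads and had a ratio of 6.59 (0.799 to 303).

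Of the 9 tested markers of osteoblasts and osteocytes, 3 were counted lower in miR-26a KO than in WT and 0 higher, and all 9 had a ratio below 1. Ifitm5 had 34 reads in WT and 6 in miR-26a KO. Of the hypertrophic list 2 of 6 genes, Ihh and Pth1r, were counted lower, while Mmp13 lay the other way, with 1415 reads in WT and 2216 in miR-26a KO and a ratio of 1.72 (1.61 to 1.84). Macrophage markers, 8 genes led by Lyz2, summed to 736 RPM in WT and 264 in miR-26a KO, and 6 of them were counted lower. Their part in the ligand values was not tested. The 12 chondrocyte markers summed to 36202 RPM in WT and 27525 in miR-26a KO, and 9 of their ratios were below 1. Of these markers 2 were counted higher, Prg4 (lubricin) at 3.36 (2.68 to 4.25) and Chad (chondroadherin) at 6.18 (3.60 to 11.3), and 1 lower, Matn1 (matrilin-1), from 2495 to 795 reads, all named after their values were seen. The part of the chondrocyte list was not tested either. The fibroblast list, at 1078 and 1002 RPM, and the smooth muscle list, at 219 and 222, were close in this pair, and adipocyte markers summed to 324 and 204.

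The last comparison set miR-26a KO + mimic, to which the missing miRNA was added back, against miR-26a KO. Whether the miR-26a KO cells received a control transfection is not certain. An effect of transfection itself therefore cannot be told apart from that of the mimic. No ligand or receptor was counted higher or lower. Across 11016 genes, 1.39% were counted higher and 1.06% lower. Of the 10 genes 5 could be tested, and the intervals of all 5 held 1. Gdf10 stood at 0.959 (0.780 to 1.18), and its 36.2 TPM lay closer to the 37.7 of miR-26a KO than to the 21.1 of WT. Bmp4 was at 0.902 (0.773 to 1.05) and Bmpr1a at 0.871 (0.618 to 1.23). Bmp3 went from 12 to 4 reads, a ratio of 0.311 (0.0732 to 1.03), and Bmp2 from 16 to 7 reads, a ratio of 0.409 (0.142 to 1.05). Both were below 0.5, and each interval held 1 by a small margin, so that a difference was not shown at this depth. Bmp3 stood at 1.43 TPM in the mimic library, 4.61 in miR-26a KO and 12.6 in WT. Bmp5 had 5 and 0 reads, under the limit of 10. The 9 tested osteoblast and osteocyte markers all had a ratio above 1 in this pair, and 0 were counted higher or lower, and 2 of 8 macrophage markers were counted higher, with a sum of 464 RPM against 264. Of the 6 hypertrophic markers 5 had a ratio above 1 and 0 were counted, with a sum of 3558 RPM after the mimic against 2915. The chondrocyte markers summed to 27767 RPM against 27525, with 6 of 12 ratios above 1, and 1 of them, Matn1, was counted lower, from 795 to 414 reads with a ratio of 0.487 (0.431 to 0.549). Matn1 is named after its values were seen, and the part of these lists in the ligand values was not tested.

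**Figure D3:**
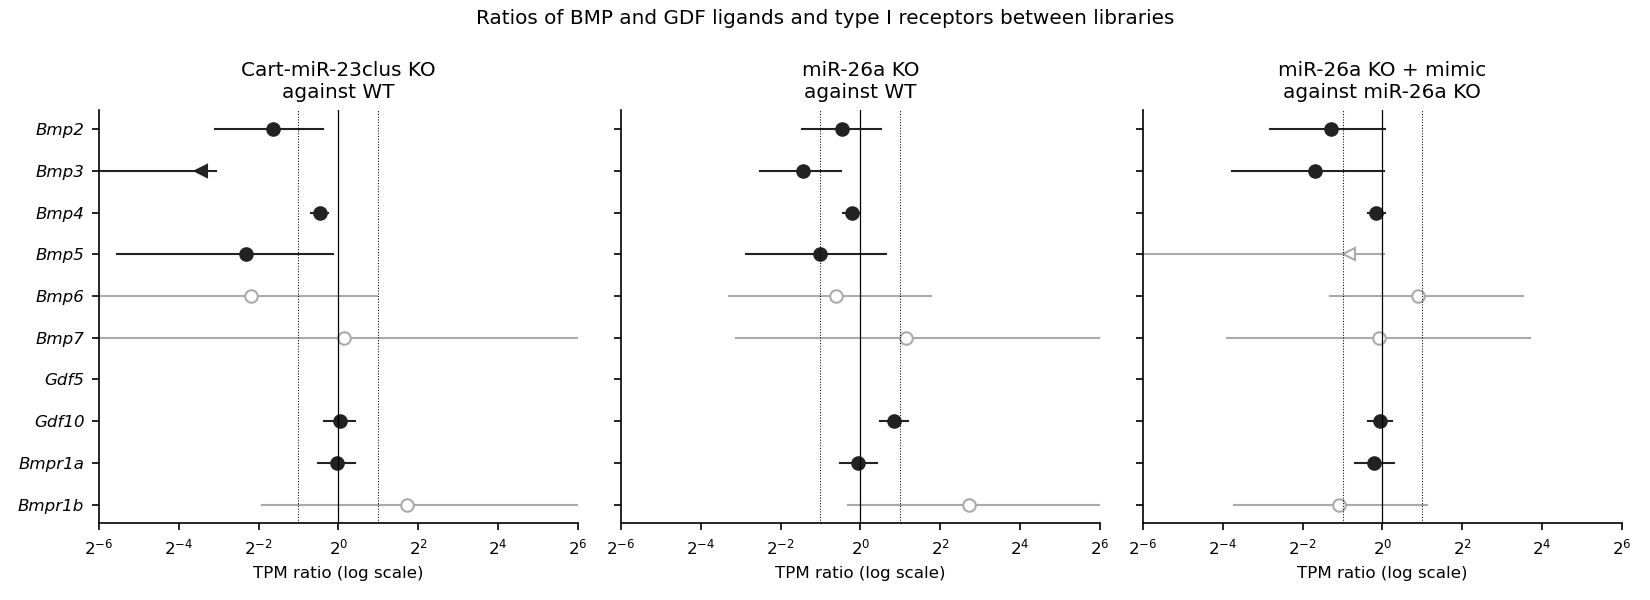
TPM ratios of the 10 genes (rows) in the 3 comparisons (panels), on a log2 axis with dotted lines at 2 and 0.5. Points are ratios, bars exact 95% intervals (clipped at the panel edge), triangles upper bounds from a library at 0 reads, and open grey marks genes with fewer than 10 reads in the pair. Gdf5 has no mark because it had at most 1 read in any library. Bmp2, Bmp3 and Bmp5 lie below 0.5 with intervals clear of 1 in the first panel, Bmp3 alone in the second, and none in the third.

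**Figure D4:**
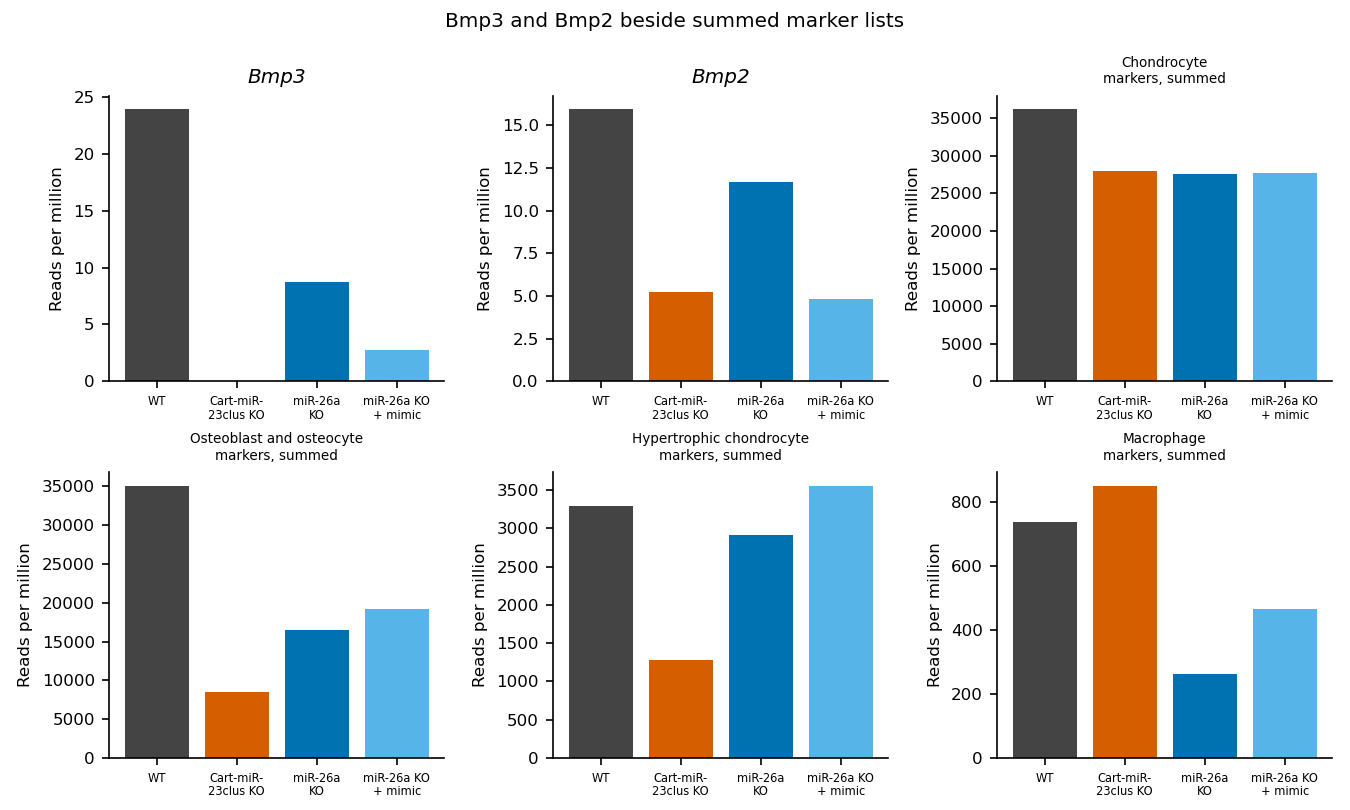
RPM (reads per 1000000 reads on genes, vertical axes, from 0) of Bmp3, Bmp2 and 4 summed marker lists in the 4 libraries (1 bar per library, no error bars since each group has 1 library). Bmp3, Bmp2, the osteoblast and osteocyte sum (35082) and the chondrocyte sum (36202) were highest in WT. The hypertrophic sum was highest in miR-26a KO + mimic, at 3558, and the sum of macrophage markers was lowest in miR-26a KO, at 264. From miR-26a KO to miR-26a KO + mimic the osteoblast and osteocyte sum rose from 16524 to 19255. Between the same libraries Bmp3 fell from 8.76 to 2.76 and Bmp2 from 11.7 to 4.83.

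The remaining genes of the pathway were described from lists by role, with the same rule. Of 66 genes 46 were tested in Cart-miR-23clus KO against WT, and 3 were counted higher and 9 lower, beside 4.16% and 3.8% of all genes tested. In miR-26a KO against the same WT library 45 were tested, and 4 were counted higher and 3 lower, beside 3.37% and 2.74% of all genes. In the mimic comparison 44 were tested and 1 was counted higher and 0 lower, beside 1.39% and 1.06% of all genes. The lists were chosen with results of these data known, so these shares are a description. Over all genes tested the median log2 ratio was -0.01 in Cart-miR-23clus KO cells, 0.03 in miR-26a KO cells and -0.01 in the mimic comparison.

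Of 13 other BMP and GDF ligands only 3 had enough reads. Gdf15, a stress-induced relative, had the most, with 76 reads in WT, 51 in Cart-miR-23clus KO cells, 80 in miR-26a KO cells and 103 in miR-26a KO + mimic cells. Bmp8a, a BMP best known from the germ line, had 14, 2, 3 and 12 reads in that order. It was counted lower in Cart-miR-23clus KO, at 0.157 (0.0173 to 0.685), and also in miR-26a KO, at 0.235 (0.0434 to 0.843), and higher after the mimic, at 3.74 (1.01 to 20.6), where the lower limit nearly touched 1. It was the 1 pathway gene counted in the mimic comparison. Gdf11, a ligand of activin receptors, was lower in Cart-miR-23clus KO, with 8 reads against 21 and a ratio of 0.419 (0.161 to 0.986). Scaled by RPM its ratio was 0.429 with an interval that held 1, so that it was not counted.

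Among 10 other receptors and co-receptors 7 were tested, and 1 was counted in each comparison with WT. This was Bambi, a pseudoreceptor that lacks a kinase and dampens BMP and TGF-β signalling. It had 100 reads in WT, 16 in Cart-miR-23clus KO cells, 27 in miR-26a KO cells and 38 in miR-26a KO + mimic cells. WT was far above the rest, with a ratio of 0.176 (0.0970 to 0.300) in Cart-miR-23clus KO and, for miR-26a KO, of 0.297 (0.186 to 0.457). The co-receptor Rgma, which had the most reads over the 4 libraries, had 90, 77, 86 and 93 reads in the same order. The type I receptor Acvr1 and the type II receptor Bmpr2 were named after their values were seen, and Acvr1 had 97, 62, 83 and 90 reads. Its ratio in Cart-miR-23clus KO was 0.704 (0.503 to 0.978), short of the fold limit. Bmpr2 had 89, 74, 76 and 99 reads, and its intervals held 1 in all 3 comparisons. The median log2 ratio of the list was -0.09 in Cart-miR-23clus KO and 0.07 for miR-26a KO.

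Extracellular antagonists moved both ways. Of 16 genes 12 were tested, and in Cart-miR-23clus KO 2 were counted higher and 3 lower. Those higher were Nbl1, a ligand-binding protein of the DAN family, with 96 reads against 36 and a ratio of 2.94 (1.98 to 4.43), and Grem1 (gremlin), which blocks BMP2 and BMP4, with 25 against 8 and a ratio of 3.44 (1.50 to 8.82). Those lower were Nog (noggin), with 6 reads against 19 and a ratio of 0.348 (0.114 to 0.906), Fst (follistatin), which binds activins and some BMPs, with 31 against 71 and a ratio of 0.481 (0.305 to 0.743), and Bmper, a modulator of BMP availability, with 8 against 28 and a ratio of 0.315 (0.124 to 0.708). The same 2 genes, Nbl1 and Grem1, were counted higher in miR-26a KO, at 131 reads and a ratio of 4.00 (2.75 to 5.95) and at 26 reads and a ratio of 3.57 (1.57 to 9.12), and 0 were counted lower. Both comparisons used the same WT value of each gene. In the mimic library Nbl1 had 118 reads and Grem1 17, and 0 genes of the list were counted. Chrdl1 (chordin-like 1), which had the most reads of the list in WT, had 437 reads in WT, 453 in Cart-miR-23clus KO cells, 447 in miR-26a KO cells and 461 in miR-26a KO + mimic cells, all within a narrow range. The median log2 ratio of the antagonists was -0.20 in Cart-miR-23clus KO and -0.05 for miR-26a KO.

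Proteases that cut BMP precursors or chordin had ratios mostly below 1 in Cart-miR-23clus KO. Of 7 genes 5 were tested, 4 had a ratio below 1, and the median log2 ratio was -0.90. The 1 gene counted was Bmp1, a chordin-cleaving protease and not a BMP ligand, with 22 reads against 51 and a ratio of 0.475 (0.274 to 0.797). Pcsk6, a convertase that processes pro-proteins of the TGF-β family, had 787 reads in WT and 462 in Cart-miR-23clus KO, a ratio of 0.646 (0.575 to 0.726), while miR-26a KO had 855 and the mimic library 926. No protease was counted in the other comparisons.

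The Smads and their regulators were all tested in Cart-miR-23clus KO. Smad5, which had the most reads, had 173 in WT, 113 in Cart-miR-23clus KO cells, 119 in miR-26a KO cells and 147 in miR-26a KO + mimic cells. Its ratios to WT were 0.719 (0.562 to 0.917) and 0.755 (0.593 to 0.960), below 1 but short of the fold limit. The inhibitory Smad7 was the 1 gene counted in Cart-miR-23clus KO, higher at 9 reads against 1, with a ratio of 9.91 and an interval of 1.37 to 434. It just met the limit of 10 reads. In miR-26a KO Smad7 had 8 reads against the same single WT read, a ratio of 8.79 (1.18 to 390) left uncounted because the 9 reads together missed that limit, and the mimic library had 14. Both ratios to WT thus rested on 1 WT read. In miR-26a KO 2 of 7 genes were counted higher, the inhibitory Smad6, with 65 reads against 35 and a ratio of 2.04 (1.33 to 3.17), and Smad9, with 24 against 12 and a ratio of 2.20 (1.06 to 4.82). With TMM scaling the ratio of Smad6 was 1.99, under the fold limit. None was counted in the mimic comparison. The median log2 ratio of the list was -0.23 in Cart-miR-23clus KO, 0.01 for miR-26a KO and 0.17 in the mimic comparison.

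Transcription targets of BMP signalling gave no common direction. Of 12 genes 11 were tested, and in Cart-miR-23clus KO 0 were counted higher and 2 lower, with a median log2 ratio of 0.09. Id3, the target with the most reads, had 880 in WT, 850 in Cart-miR-23clus KO cells, 901 in miR-26a KO cells and 1002 in miR-26a KO + mimic cells. The genes counted lower were Dlx3, a homeobox gene of bone and skin, with 2 reads against 21 and a ratio of 0.105 (0.0119 to 0.429), and Sp7 (osterix), a transcription factor needed for osteoblasts that was also in the list of osteoblast markers, with 49 against 161 and a ratio of 0.335 (0.238 to 0.464). Dlx3 was also the 1 target counted lower in miR-26a KO, with 3 reads and a ratio of 0.157 (0.0300 to 0.525). Id2 lay above 1 but under the fold limit, with 386 reads in WT, 658 in Cart-miR-23clus KO and 549 for miR-26a KO, and was chosen for mention after its values were seen. Id1, named for the same reason, had between 200 and 223 reads in the 4 libraries.

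**Figure D5:**
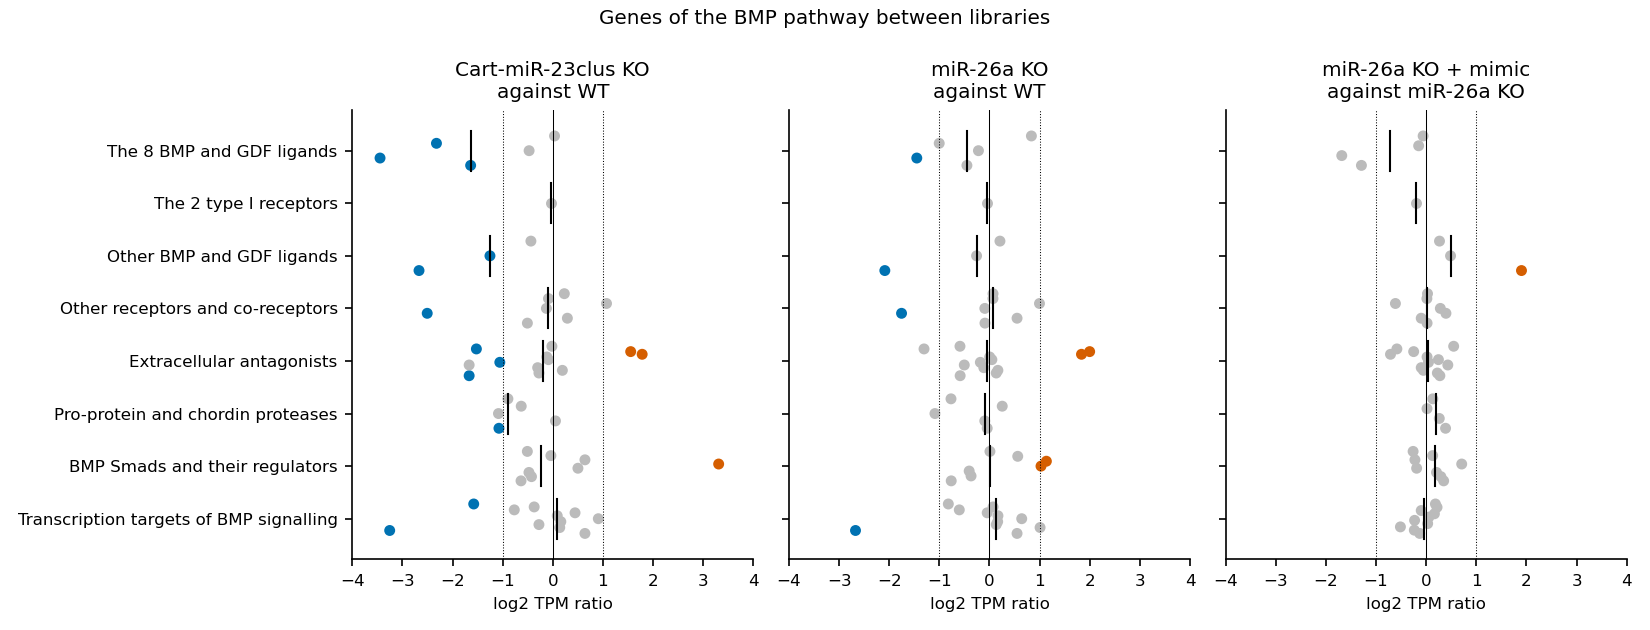
log2 TPM ratios (horizontal axis) of tested genes of the BMP pathway, grouped by role (rows), in the 3 comparisons (panels). Points are genes, orange where counted higher, blue where counted lower and grey otherwise, black bars are medians of a list, and dotted lines mark 2-fold. In the first panel 3 of the 5 tested ligands of the top row are blue and Nbl1, Grem1 and Smad7 are orange, and in the third panel the 1 coloured point is Bmp8a.

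Genes whose pattern over the 4 libraries was most like that of a ligand or receptor were found by the Euclidean distance of log2(TPM + 1), centred on its mean, among up to 9012 genes that reached 5 TPM on average. With 4 points and this many genes some close matches are certain to be found, and low counts share their steps, so the names are a description. Bmp4 was matched by Trio, Rabggtb and Mcm3ap, with distances of 0.0120 to 0.0345. Bmpr1a was matched by Ndufa9, Otud5 and Samd4b, at 0.00836 to 0.0271. Gdf10 had Pam, Ubxn6 and Gm49797 nearest, at 0.113 to 0.120, and Pam, an enzyme that amidates peptides, showed 710 TPM in WT, 711 in Cart-miR-23clus KO cells, 1271 in miR-26a KO cells and 1099 in the mimic library. Bmp2 had Tefm, Gm43343 and Ift27 nearest, at 0.0648 to 0.222. Bmp3 had no close match, and the nearest, A930037H05Rik, Gm7240 and Slc13a5, lay at 0.504 to 0.926. Slc13a5, a citrate carrier of bone cells, had 29.6 TPM in WT, 0.633 in Cart-miR-23clus KO cells, 7.58 in miR-26a KO cells and 7.38 in the mimic library.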

How the data were processed

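The authors made QuantSeq 3′ mRNA libraries, sequenced them as single-end reads of 75 bases, applied no filter for read quality and mapped them to mm10 (GRCm38.p6 in the submitters' processing notes). Aligner, counter and annotation are not given in the sources used here. The deposited estimated count of a gene is a whole number of reads, not normalized, for 3 libraries, of whose reads 76.45% to 83.24% aligned. Deposited TPM, computed by the authors from reads, one length per gene and a library total, covers 4 libraries. Reads of the miR-26a KO + mimic library were recovered from the steps of its TPM, and 14429 of 14429 values tested were whole within 0.02 reads, while 588 genes could not be recovered.

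Ratios of deposited TPM were taken with exact Clopper-Pearson 95% intervals on reads, with 3 reads in place of 0 for a bound. Levels carry exact Poisson intervals. Intervals and limits cover counting error only, and not the spread between libraries of a group. PCR reads without molecular identifiers are not independent molecules, so the intervals may be too narrow even for counting error. With 1 library per group no test was made. Alternatives were RPM (reads per 1000000 reads on genes), edgeR 4.0.16 TMM factors, DESeq2 1.42.0 size factors, a 99% interval, no filter, at least 20 reads in each library, the fold limit alone, 0.1 or 1 TPM added, and miR-26a KO in place of WT. The steps were tested on simulated data.

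The genes and lists were chosen with earlier results of these data known. Besides the 10 genes, those named are pathway genes counted in any comparison, the gene with most reads in each list, markers with most reads or at 0, and the 3 nearest in pattern to each gene with at least 20 reads. Gm15222 and Txndc5 are named as genes that overlap Bmp4 and Bmp6. Others are marked as chosen after their values were seen. Loci and 3′ UTRs came from GENCODE M21 on GRCm38. Software was R 4.3.3, scipy 1.17.1, pandas 2.3.3 and numpy 2.4.6 under Python 3.11.15, with matplotlib 3.10.9.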

Additional observations from a re-analysis of the deposited data

How the results depend on the processing

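No paired analysis was possible because every group held a single library, and for the same reason no library could be left out. Requiring at least 20 reads in each library left 0 genes counted lower in Cart-miR-23clus KO and 0 for miR-26a KO, against 3 and 1, because Bmp2, Bmp3 and Bmp5 were under that limit. With miR-26a KO in place of WT, 1 gene was counted lower in Cart-miR-23clus KO. With the fold limit alone, 2 were counted lower in miR-26a KO, Bmp3 and Bmp5, and 2 in the mimic comparison, Bmp2 and Bmp3, against 1 and 0. A 99% interval left 2 of the 3 genes counted lower in Cart-miR-23clus KO, without Bmp5. Of 19 recomputed counts that had been above 0, 4 moved by more than 1.5 times, and 36 of the 37 that had been 0 were 0 again. Of 90 ratios 87 stayed within their interval, but most used the same reads under another scaling or with TPM added, so this was largely given. Only the use of miR-26a KO in place of WT brought in another library. There Bmp3, Bmp4 and Gdf10 left their interval, and Bmp2 and Bmpr1a did not. In Cart-miR-23clus KO against WT, Bmp5 went from 0.200 to 0.413 with 1 TPM added, inside its wide interval. Bmp3 likewise went from a bound of 0.0918 to 0.00789 with 0.1 TPM added. Another scaling moved a ratio of the 10 genes by at most 2.54%. It removed Gdf11 (0.429 by RPM) from the pathway genes counted lower and Smad6 (1.99 by TMM) from those counted higher. It added Nog in miR-26a KO (0.394 by TMM and 0.397 by DESeq2). A shift of this size could not turn the direction of a gene counted beyond the fold limit, so the directions were not put to a test by it. The median log2 ratio over all genes changed sign within a small shift, from -0.01 to 0.02 by RPM in Cart-miR-23clus KO and from 0.03 to -0.01 by TMM in miR-26a KO.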
